A study of Homo sapiens with 21 samples.

Results

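AGO2 clusters carrying a let-7 seed match were taken from 6 deposited AGO2 libraries by sequence. A cluster counted when its listed sequence contained the reverse complement of bases 2 to 8 of mature let-7a-5p, written as DNA, and when the files did not class it as miRNA. This gave 1125 clusters of 74281 that were not classed as miRNA, and 855812 clusters were listed over all 17 libraries with files. No read count entered the choice. The cells were Flp-In T-REx 293, an established human embryonic kidney line, with a stably integrated FLAG-HA-tagged AGO2 transgene, and the sources used here do not say whether the cells' own AGO2 was removed. The AGO2 cells were labelled with 4-thiouridine at 100 uM for 8 to 12 h, irradiated with UVA or UVB light and precipitated through the FLAG tag. In this method, PAR-CLIP, a thiouridine that crosslinked to protein shows up as a T-to-C change in the reads. The fluorescent libraries were made with RNase I at 0.15 or 1.5 U/ul, with 1 library at each dose. The radiolabelled AGO2 libraries were made with RNase T1 at 1 U/ul, 2 (A and B) without a urea gel step and 2 (A and B) with it. The CPSF1, FUBP3 and KHSRP cells had the same labelling dose and time as the AGO2 cells. Their fluorescent libraries were made with RNase I, and the radiolabelled ones of FUBP3 and KHSRP with RNase T1. The U2AF1 cells were labelled at a higher 4-thiouridine dose for a shorter time, and RNase A/T1 was used. The labels do not say whether A and B were separate cultures, so any p-value measures spread between libraries, which may be technical.

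AGO2 is the Argonaute protein that holds a microRNA and is guided by it to partly complementary RNA, mostly in 3' UTRs, where it lowers translation and mRNA stability. Pairing starts at the seed, the stretch that follows the first base of the microRNA, and an A across from that first base strengthens the hold of Argonaute. The let-7 family rises as cells differentiate and represses growth and stem-cell regulators such as LIN28, HMGA2 and the IGF2BP proteins, while LIN28 in turn blocks the maturation of let-7 precursors. The 11 mature human microRNAs that RefSeq (GRCh38.p14) lists with this seed are shown by 4 of them, with bases 2 to 8 in capitals, since every match below pairs with that stretch whichever member is bound.
let-7a-5p: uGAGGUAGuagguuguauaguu
let-7b-5p: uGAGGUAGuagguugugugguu
let-7g-5p: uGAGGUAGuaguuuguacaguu
miR-98-5p: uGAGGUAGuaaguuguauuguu

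The target sites that were found in all 6 libraries, or were among the 3 most read in a library, are shown 5′ to 3′ as DNA in transcript direction. The capitals mark the match, followed by the base that lies across from base 1 of let-7. They were cut from the listed cluster sequences to at most 30 bases.
CBX5 3' UTR: ttcttggattttaatCTACCTCatcttgtc
FIGN 3' UTR: tctttataaccatttCTACCTCattgctac
PPP1R15B 3' UTR: gtgcttacagggttaCTACCTCagtttaca
ESPL1 3' UTR: agcctcataactgttCTACCTCcaag
ZNF567 coding: gtgaattcaaaaaatCTACCTCctg
XIST exon: ttcgtcattgtccttCTACCTCaaagataa
NCAPD2 coding: tgcctaccgccaactCTACCTCaaccccaa
H2AFX start codon: tcgtgcttcaccggtCTACCTCgctagcat
RP11-834C11.4 exon: tgccaagcattgtctCTACCTCagtttgcc
Unannotated, chromosome 6: tccttaacacCTACCTCtctg
In 8 of these 10 the base before the match is T, and in 6 of 10 the base after it is A. In hg38, counted from 1, the matches lie at chr12:54234981-54234987 (CBX5, minus strand), chr2:163604649-163604655 (FIGN, minus), chr1:204404653-204404659 (PPP1R15B, minus), chr12:53293519-53293525 (ESPL1, plus), chrX:73820879-73820885 (XIST, minus), chr12:6522973-6522979 (NCAPD2, plus), chr11:119095401-119095407 (H2AFX, minus) and chr12:54132743-54132749 (RP11-834C11.4, plus). The ZNF567 and chromosome 6 sites were listed only in the radiolabelled libraries, whose coordinates are not hg38, and get no position here. For the feedback between let-7 and its regulators, the sites of LIN28B and HMGA2 seen in the most libraries are shown beside them, outside that rule.
LIN28B 3' UTR: acccggttgcaaagtCTACCTCatgcaagt
HMGA2 3' UTR: aatcaaaacacactaCTACCTCttaag

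The match was found in 89 of 2283 clusters (3.90%, 95% Wilson interval 3.18 to 4.77) in the fluorescent library at 0.15 U/ul and in 51 of 2209 (2.31%, 1.76 to 3.02) at 1.5 U/ul. Without the gel it was in 456 of 38787 clusters (1.18%, 1.07 to 1.29) in library A and 365 of 22326 (1.63%, 1.48 to 1.81) in B. With the gel it was in 115 of 6527 (1.76%, 1.47 to 2.11) in A and 49 of 2149 (2.28%, 1.73 to 3.00) in B. The libraries of the other proteins were lower throughout, between 0.0395% (KHSRP at 0.5 U/ul) and 0.164% (CPSF1), and of the U2AF1 libraries 1 held 4 such clusters and the other 0 of 2760 (95% Wilson upper bound 0.139%). Per length, matches stood at 48.1 to 126 per 100 kb of AGO2 cluster against 1.28 to 5.63 in the libraries of the other proteins that held any. No AGO2 interval reached that of another protein. Intervals cover counting error only, and clusters of a library are not replicates, so no p-value is given between proteins. Labelling differed for U2AF1, and the RNase or its dose for several libraries. Their part in the gap between AGO2 and the other proteins was not tested.

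**Figure D1:**
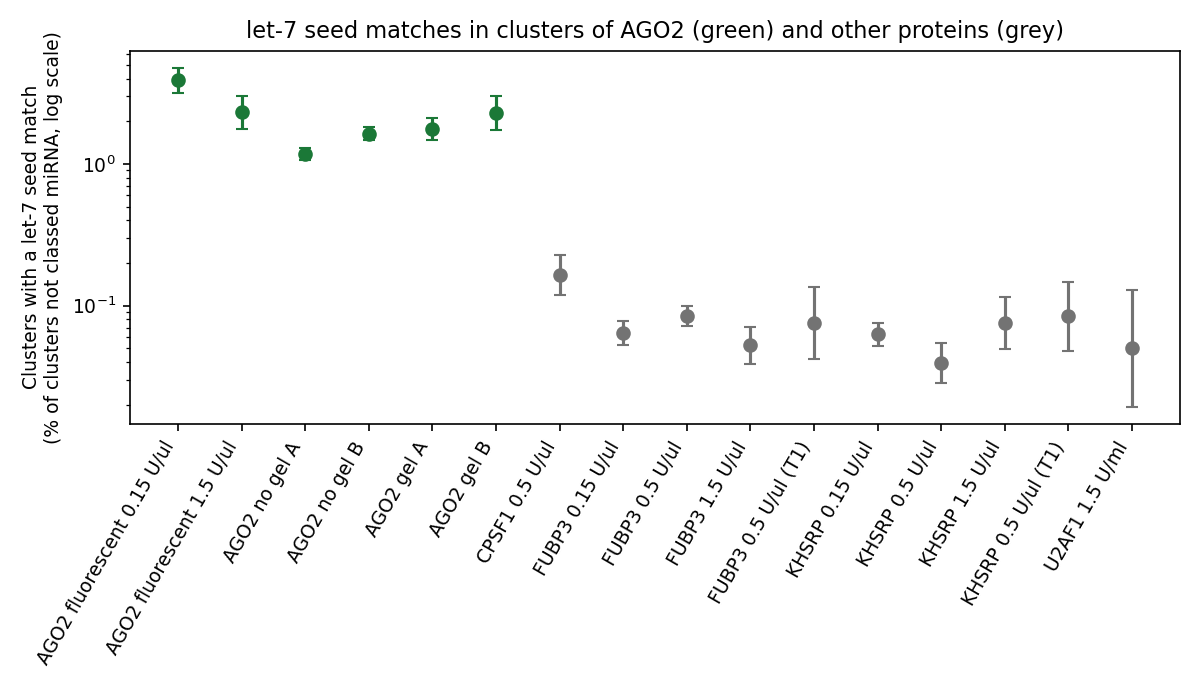
Share of clusters with the let-7 match (y axis, percent of clusters not classed miRNA, log scale) for each library with at least 1 such cluster, with 95% Wilson intervals. The 6 AGO2 libraries (green) lie between 1.18% and 3.90% and the libraries of CPSF1, FUBP3, KHSRP and U2AF1 (grey) at or below 0.164%.

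In reads the order of the AGO2 libraries differed. The match clusters held 1056 and 607 reads at 0.15 and 1.5 U/ul, 10913 and 7676 in A and B without the gel, and 1491 and 623 with it. These were 0.532% and 0.326% of the reads outside miRNA clusters in the fluorescent libraries, against 1.71% to 2.12% in the radiolabelled ones. RNase, label and protocol differ together between these groups and cannot be told apart. The 5 most read match clusters held 20.6% to 28.8% of these reads in 5 libraries and 44.6% in gel library B. The median match cluster held 8.00 to 10.0 reads, close to the 7 to 9 of the other clusters. It held 7.00 distinct read sequences in both fluorescent libraries and 2.00 and 3.00 without the gel, where copies of few sequences make up the counts. The other clusters were alike, with 8.00 and 7.00 in the fluorescent libraries and 2.00 in both libraries without the gel.

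The words of 7 bases were ranked by the number of non-miRNA clusters that hold them. The let-7 match was at rank 2 and 4 of 16384 in the fluorescent libraries, at 30 and 8 without the gel and at 17 in both gel libraries. Among the 105 words made of the same letters it came first in all 6 libraries, with 89 clusters against 16 for the next at 0.15 U/ul and 456 against 156 in no gel library A. In 3' UTR clusters the ranks were lower (9 in both fluorescent libraries, and 364, 136, 99 and 38 in the radiolabelled ones). In coding clusters they were 1 and 2 in the fluorescent libraries and 4, 2, 5 and 10 in the others.

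Coding sequence held a higher share of matches than 3' UTRs did. At 0.15 U/ul 36 of 375 coding clusters (9.60%, 7.02 to 13.0) and 35 of 939 3' UTR clusters (3.73%, 2.69 to 5.14) had the match. At 1.5 U/ul the shares were 5.14% and 3.53%, without the gel 1.35% and 0.626% in A and 2.15% and 0.963% in B, and with it 2.76% and 1.17% in A and 3.42% and 1.94% in B. The coding share was the higher one in 6 of 6 AGO2 libraries, by 1.45 to 2.58 times, with overlapping intervals at 1.5 U/ul and in gel library B. The libraries share a cell line and many sites, so this is a description without a test. Among clusters of at least 10 reads it held in 5 of 6 libraries, and at 1.5 U/ul the coding share then lay 0.669 points lower, a difference of -0.669. In the fluorescent libraries of the other proteins, which had 0 to 8 coding match clusters each, the order varied. The coding share was the higher one for CPSF1 (0.75% of coding and 0.187% of 3' UTR clusters), for FUBP3 at 0.15 U/ul (0.0857% and 0.0651%) and 0.5 U/ul (0.239% and 0.100%) and for KHSRP at 0.15 U/ul (0.139% and 0.0130%). No coding cluster had the match for FUBP3 at 1.5 U/ul (3' UTR 0.0422%) or for KHSRP at 0.5 U/ul (0.0238%) and 1.5 U/ul (0.0412%). Over the 105 words of the same letters, the median count in no gel library A was 21 of 7920 coding and 29 of 16937 3' UTR clusters. It was 13 of 4648 and 20 of 10596 in B, and 2 of 1161 and 4 of 3418 in gel library A. In gel library B and both fluorescent libraries it was 0 in coding and 1 in 3' UTR clusters. The part of base composition in the AGO2 coding shares was not tested.

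Introns held 120 of the 456 match clusters in no gel library A and 69 of 365 in B, 15 of 115 and 4 of 49 with the gel, and 4 of 89 and 3 of 51 in the fluorescent libraries. The share of intron clusters with a match was 2.2% and 2.81% without the gel, 2.44% and 3.03% with it, and 1.57% and 0.836% in the fluorescent libraries. It was above the 3' UTR share in the 4 radiolabelled libraries and below it in both fluorescent ones. The intronic match clusters without the gel were thin, with a median of 1.00 and 2.00 distinct read sequences, against 5.00 for 3' UTR match clusters in both libraries. Clusters without the match were as thin or thinner, with 1.00 in both libraries for introns and 2.00 and 3.00 for 3' UTRs. Unannotated clusters added 82 and 55 match clusters without the gel, 15 and 6 with it, and 2 at 0.15 U/ul. The files of the radiolabelled libraries use other coordinates than hg38, so these classes come from another annotation.

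**Figure D2:**
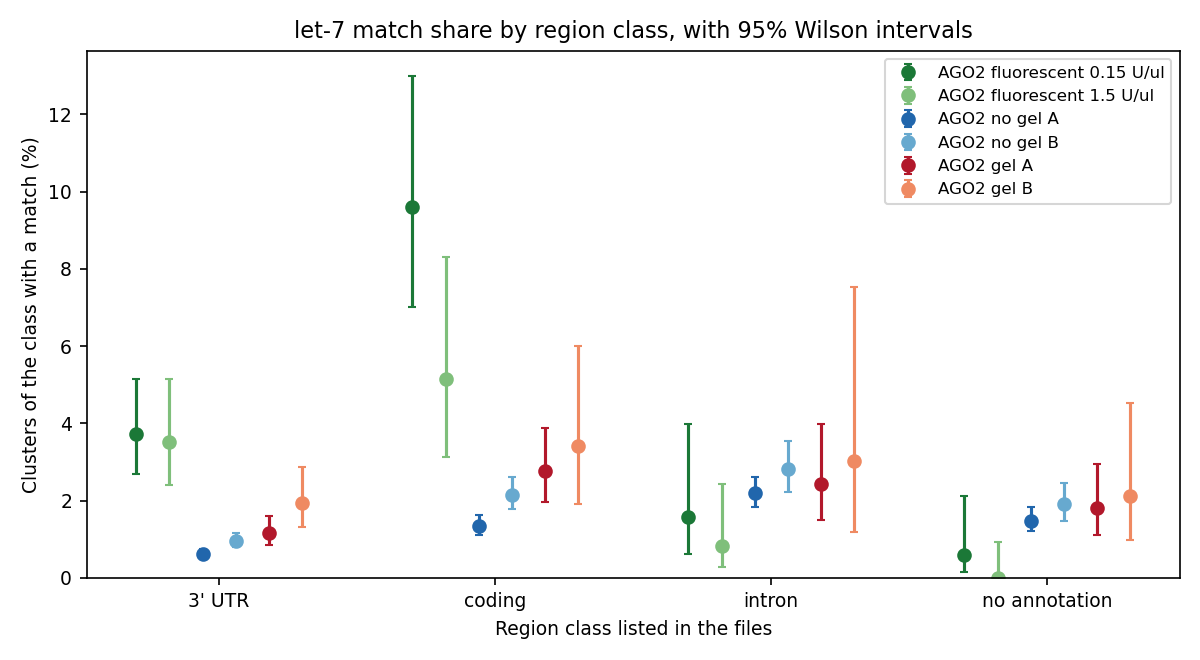
Share of clusters with the let-7 match (y axis, percent) within 3' UTR, coding, intronic and unannotated clusters, for the 6 AGO2 libraries, with 95% Wilson intervals. The coding points lie above the 3' UTR points of the same library, with 9.60% against 3.73% at 0.15 U/ul.

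Each cluster has a mode location in the files, taken here as the place of its highest T-to-C signal, although the sources used here do not define it. The mode was 0 to 4 bases upstream of the first base of the match for 63 of 90 matches (70.0%, 59.9 to 78.5) at 0.15 U/ul, 34 of 52 (65.4%) at 1.5 U/ul, 252 of 460 (54.8%) and 205 of 368 (55.7%) without the gel, and 68 of 116 (58.6%) and 31 of 51 (60.8%) with it. The commonest position in every AGO2 library was the base just before the match, at 20.1% to 26.9% of matches. On the other bases of the match, from the one after its first to its last, the mode lay for 0.862% to 3.48%. In intronic clusters without the gel it lay in the upstream window for 66.1% and 74.3% of matches, and in 3' UTR clusters for 52.3% and 49.5%. At the matches in FUBP3, KHSRP and CPSF1 clusters the window held 7.96% to 33.3%, and the base before the match 0 to 8.33%, over 12 to 154 matches a library. The base at the mode was T in 28.3% to 37.3% of all AGO2 clusters outside miRNAs, though a T-to-C change can occur only at T, so the mode is not in general a converted base. T made up 24.2% to 34.1% of all bases in those clusters.

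**Figure D3:**
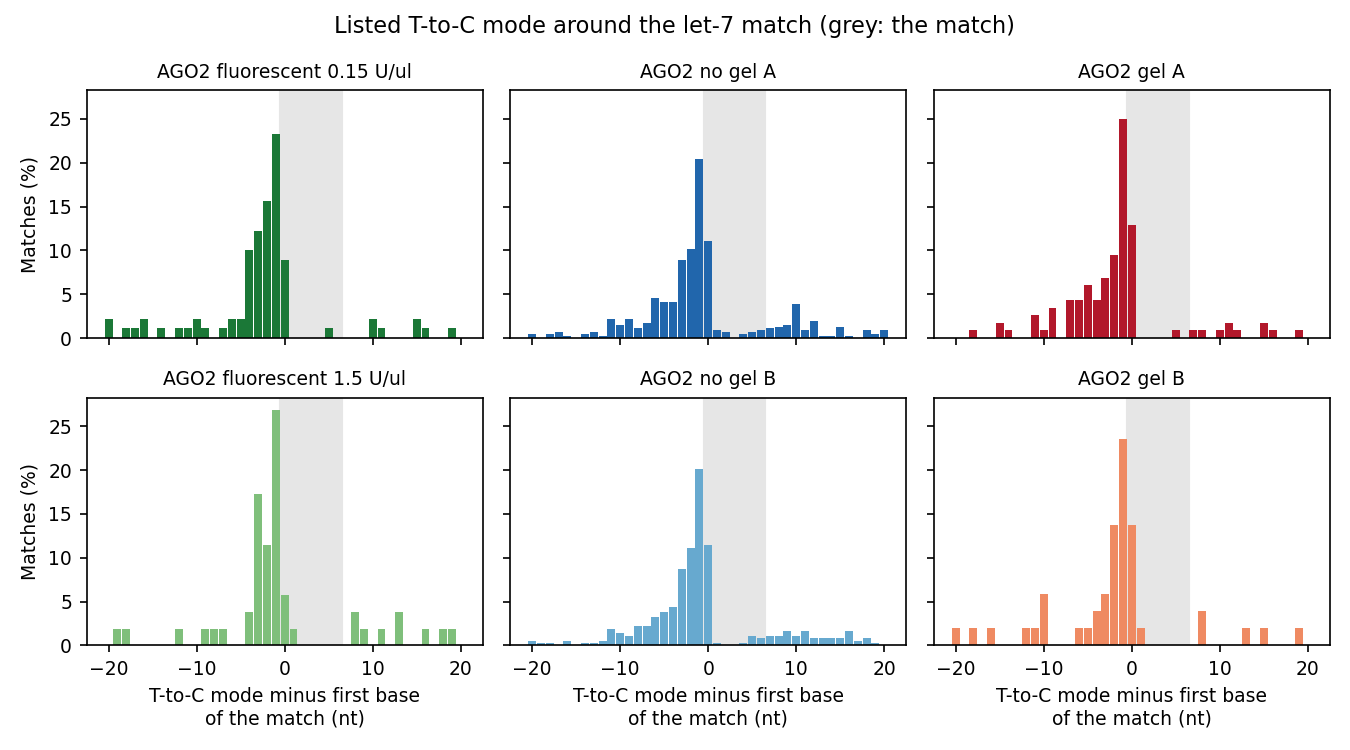
Listed mode location, taken as the place of highest T-to-C signal, relative to the first base of the let-7 match (x axis, nt in transcript direction, with positions beyond 20 nt not drawn) as a percent of matches (y axis) in each AGO2 library, with the match in grey. The bars peak 1 base before the match in all 6 libraries and are low within it.

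The bases beside the match were shared too. T preceded it at 72 of 89 matches (80.9%) at 0.15 U/ul and 38 of 51 (74.5%) at 1.5 U/ul, at 66.6% and 66.1% without the gel and at 73.0% and 78.4% with it. At the matches in FUBP3, KHSRP and CPSF1 clusters T preceded 30.0% to 58.3%. Every AGO2 cluster in the files held at least 4 reads with a conversion, and the part of this minimum in the bases beside the match was not tested. A followed the match, across from base 1 of let-7, in 62.2% (56 of 90) and 60.4% (29 of 48) of the fluorescent matches, 48.6% and 47.4% without the gel, against 50.0% and 49.0% with it. A made up 19.8% to 28.3% of the bases in these clusters, and it followed 23.7% to 41.7% of the matches in FUBP3, KHSRP and CPSF1 clusters. Matches to 6 other families (miR-17, miR-19, miR-92, miR-15/16, miR-103/miR-107 and miR-30) occurred in 1 of the 89 match clusters at 0.15 U/ul and 2 of the 51 at 1.5 U/ul, against 14.8% and 11.2% of the other clusters. In the radiolabelled libraries 0 to 5 match clusters held one, against 7.71% to 21.6% of the others. The let-7 match fills part of each match cluster and leaves less room for another match there. The other clusters were defined by lacking the let-7 match. Whether the way the groups were formed lowered the share in match clusters was not tested.

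The matches in the 1125 clusters collapsed to 752 sites, where matches at the same position, or with at least 18 identical bases around them across builds, counted as 1 site. A cluster with more than 1 match gave a site for each, and its reads count at each. Of the 752 sites, 525 were in a single library, 131 in 2, 52 in 3, 31 in 4, 10 in 5 and 3 in 6. A site was listed in a library only where a cluster there held the whole match. Where it was not listed, a cluster without the whole match may still lie at that place. The fluorescent libraries shared 28 sites, 31.1% of the sites at 0.15 U/ul and 53.8% at 1.5 U/ul. No gel A and B shared 163 (35.5% and 44.3%), and gel A and B shared 35 (30.4% and 68.6%). The sites of gel library B were in no gel library A for 92.2% and in B for 90.2%. Across protocols 49 sites were linked, 43.0% of the fluorescent and 7.13% of the radiolabelled sites. Of the 65 fluorescent sites without a partner, 15 lay in genes with a radiolabelled site that was not linked to them. A cluster shorter than 18 bases, such as that of C5orf51 at 0.15 U/ul (15 bases), could not be linked. Places of like sequence on 1 chromosome and strand could be pooled, so these counts depend partly on cluster length and sequence. The 96 sites in at least 3 libraries were 41.7% 3' UTR, 30.2% coding, 9.38% intron and 6.25% unannotated. The 525 seen in 1 library were 20.8%, 22.1%, 29.7% and 18.5%. Sites seen in at least 3 libraries held 48.3% to 55.7% of match reads in the fluorescent and no gel libraries, 79.0% in gel library A and 93.9% in gel library B.

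The 3 sites found in all 6 libraries lie in 3' UTRs. CBX5 encodes the heterochromatin protein HP1 alpha, and its site held 15 and 7 reads in the fluorescent libraries at 0.15 and 1.5 U/ul, 577 and 386 without the gel, against 63 and 99 with it. It was the most read match cluster in no gel library A and gel library B. FIGN, a microtubule-severing enzyme, held 10 and 11 reads, then 185 and 119, then 58 and 18. PPP1R15B, which directs a phosphatase to eIF2 alpha, held 7 and 17 reads, then 50 and 37, then 11 and 11. In all 3 the fluorescent values were below those without the gel, in libraries with fewer reads in clusters (295889 and 335870 against 929424 and 608223).

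Of the 10 sites in 5 libraries, ESPL1 (separase, which cleaves cohesin) was the most read, with 7 reads at 0.15 U/ul, none listed at 1.5 U/ul, 440 and 381 without the gel, against 130 and 60 with it. PROSER1 was the single 5' UTR site, with 7 reads at 0.15 U/ul, 178 and 145 without the gel, against 19 and 12 with it. GARS, the glycyl-tRNA synthetase, carried a pair of matches in 1 coding cluster, with 29 and 17 reads in the fluorescent libraries, 69 and 46 without the gel and 17 in gel library A. TAF5L, NME6, GNG5, LIN28B, TMPPE and PGRMC1 made up the rest, and between 5 and 100 reads were listed where they were found. TAF5L was coding and the others 3' UTR.

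**Figure D4:**
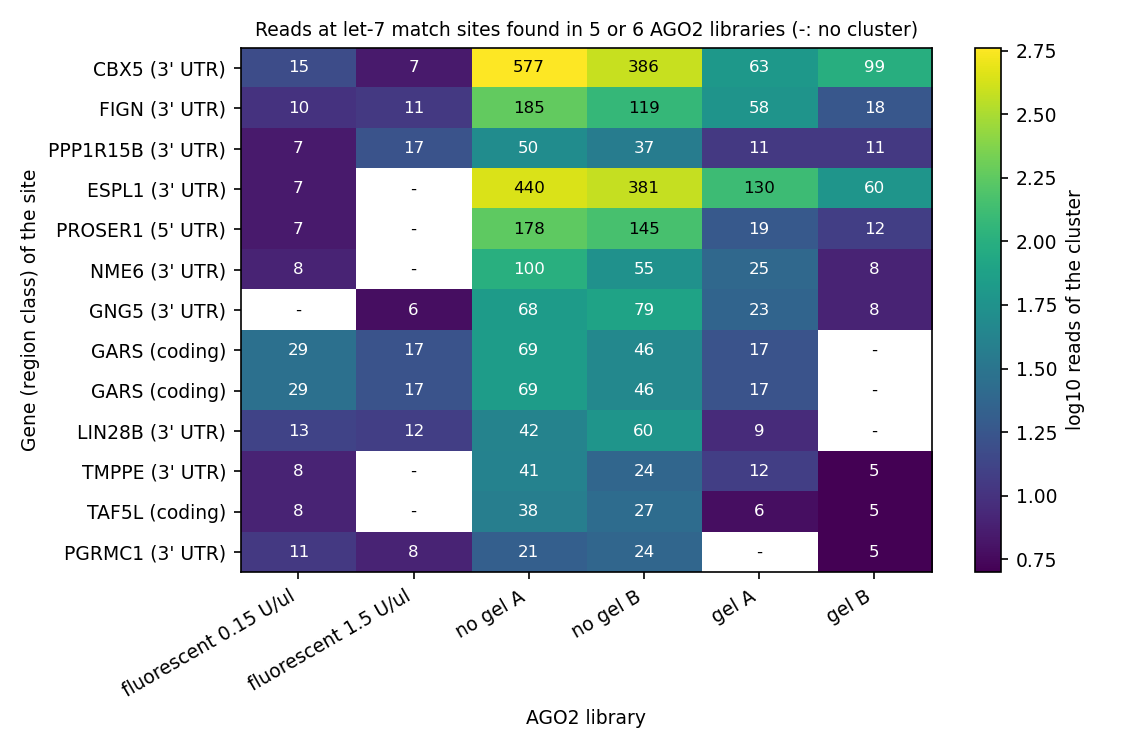
Reads of the match cluster (numbers, and colour on a log10 scale) in each AGO2 library (columns) for the 13 sites in 5 or 6 libraries (rows). A dash means that no cluster containing the whole match was listed. CBX5, FIGN and PPP1R15B have a cluster in all 6, and the GARS rows are 2 matches in the same cluster.

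The fluorescent libraries were led by other sites than the radiolabelled ones. A site in an exon of XIST, the noncoding RNA of X inactivation, was first in both, with 107 and 48 reads, 89 and 56 without the gel and none listed with it. At 0.15 U/ul NCAPD2 (a condensin subunit, coding, 40 reads), H2AFX (the histone H2A.X, now H2AX, start codon, 36), PRTG (3' UTR, 30), GARS (29), ERP29 (coding, 27), DICER1 (coding, 24), LIN28B (3' UTR, 22), RP11-834C11.4 (22) and ACTG1 (stop codon, 21) followed. The ACTG1 match recurred in ACTB with 13 reads, and since these actins are nearly identical the split between them is uncertain. At 1.5 U/ul H2AFX (41), RP11-834C11.4 (32), PRTG (30), TIMM17B (3' UTR, 24), another XIST site (21), IGF2 (5' UTR, 19), NCAPD2 (18), NLGN2 (intron, 18) and GARS (17) followed. The ACTG1, TIMM17B, IGF2 and NLGN2 sites and this DICER1 site had no linked site in a radiolabelled library.

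The radiolabelled libraries shared their leading sites. ZNF567, a zinc finger gene with a coding site, held 349 and 224 reads without the gel, against 110 and 72 with it. MLK4 (now MAP3K21, a kinase, coding) held 165 and 101, then 26 and 9. TRIP13, a mitotic ATPase, held 119 and 55 reads at a coding site without the gel, against 34 and 17 with it. NME6 (100 and 55, then 25 and 8), a transcript on chromosome 9 classed as nonsense-mediated decay (98 and 54, then 18 and 15), and an unannotated site on chromosome 10 (115 and 85, then 27 and 12) were also in all 4. SLC10A7 held 8 reads at 0.15 U/ul, 54 in A and none listed in B where no gel was run, and 24 and 5 where it was. NCAPD2 was listed in no gel library A (149) and gel library A (13) and in neither B library. ZFP36, in no gel library B, had 87 reads from 2 distinct sequences. An unannotated site on chromosome 14 held 325 reads in no gel library A, none listed in B, and 29 in gel library B. Conversion was in 33.8% of its reads in that no gel library, where the median match cluster had 100%.

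An unannotated site on chromosome 6 held 557 and 442 reads without the gel and was not listed with it. Its 21 bases differ from the GNG5 3' UTR site by 1 base, T10C, counted from 1 at the 5′ end of the stretch, with the base of GNG5 first.
GNG5 3' UTR: tccttaacatCTACCTCtctg
Unannotated, chromosome 6: tccttaacacCTACCTCtctg
That base is the one directly before the match, where the mode was commonest over all matches, and C is what a converted T is read as. At the chromosome 6 site itself the listed mode was 10 bases downstream of the first base of the match in A and 5 upstream in B. At GNG5 it was 1 base upstream at 1.5 U/ul, 46 or 51 in the libraries without the gel, and 18 and 10 in gel A and B. GNG5, a G protein gamma subunit, held 6 reads at 1.5 U/ul, 68 and 79 without the gel, against 23 and 8 with it. Conversions were listed in 36.9% and 34.6% of the chromosome 6 reads, and in 41.2% and 37.7% of the GNG5 reads, in A and B without the gel. Whether reads of one place were put at the other was not tested.

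Genes known as let-7 targets were looked up in a list of 103, of which 81 had any non-miRNA AGO2 cluster and 33 a match cluster in at least 1 library. At 0.15 U/ul 14 of 28 listed genes with a cluster had a match (50.0%), against 6.33% of all genes with a cluster. The same shares were 39.1% of 23 against 3.61% at 1.5 U/ul, 24.1% of 79 against 3.87% and 30.3% of 66 against 4.25% without the gel, and 21.7% of 46 against 2.95% and 26.9% of 26 against 3.21% with it. Such lists are drawn largely from genes with this seed site, and the list was made with earlier results known, so these shares are no independent evidence.

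Among the genes that act on let-7 itself, LIN28B, the RNA-binding protein that blocks let-7 maturation, had 5 match sites, more than any other gene. Its 3' UTR site shown above held 13 and 12 reads in the fluorescent libraries, 42 and 60 without the gel, 9 in gel library A and none listed in gel library B. Another 3' UTR site held 22 reads at 0.15 U/ul and 38 and 19 without the gel. DICER1, which cuts microRNA precursors, had 4 match sites, all classed as coding. These held 24 reads at 0.15 U/ul for one, 30 and 15 without the gel and 11 in gel library B for another, and 28 and 8 in no gel library A for the others. TARBP2, a partner of Dicer, had 10 reads (3' UTR) and ZCCHC11 (now TUT4, which adds uridines to let-7 precursors) 19 (coding), both in no gel library A. Of the 20 genes in the microRNA machinery list, 15 had a cluster and these 4 a match.

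Of the growth regulators, HMGA2, a chromatin protein of embryonic tissue, had 3 sites in its 3' UTR, all of them listed in radiolabelled libraries and none in the fluorescent ones. The most read held 29 and 41 reads without the gel, against 9 and 11 with it. IGF2BP1, which protects mRNAs of growth genes, also had 3, with 13 and 11 reads and 8 and 7 reads at separate sites in the fluorescent libraries, and 37, 32 and 7 reads at a site in no gel A, no gel B and gel A. IGF1R, the IGF1 receptor, held 10 reads at 0.15 U/ul and 129 and 63 without the gel, and TGFBR1, a TGF-beta receptor, held 23 and 23 without the gel. NRAS held 6 reads, and TRIM71, a stem-cell RNA-binding protein, 10, both in no gel library B. Of the cell cycle genes in the target list, CDC25A held 17 and 12 without the gel, E2F5 5 and 7, E2F6 9 at 0.15 U/ul, AURKB 6 at 1.5 U/ul, and the CCNJ sites 8 at 1.5 U/ul and 10 in no gel library A.

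PRTG, a neural immunoglobulin superfamily receptor, held 30 and 30 reads in the fluorescent libraries and 66 and 53 without the gel, and was not listed with it. BACH1, a repressor of heme-responsive genes, had a pair of sites in the radiolabelled libraries. The more read one held 142 and 90 reads without the gel, against 19 and 11 with it, and the other 53 and 45, then 8 in gel library A. USP38 (68 and 28, then 18 and 7) and FNDC3A (29 and 29, then 9 and 7) were in all 4 radiolabelled libraries and in no fluorescent one. ZNF512B held 14 and 12 reads and EIF4G2 15 and 6 in the fluorescent libraries, and neither was linked to a radiolabelled site. ARID3A was coding, with 13 and 25 reads without the gel, and the IGF2BP2 site was intronic, with 5 reads. RDX had 23 reads in no gel library A and 6 in gel library A. The others (ATP2A2, HIC2, LIMD2, LRIG3, NR6A1, SKIL, SLC5A6, SMARCAD1 and ZBTB5) held 5 to 12 reads at each site, each site in a single library.

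The effect of the gel could be compared with replicates. The match share of clusters was 1.41% ± 0.325 (SD, n = 2) without the gel and 2.02% ± 0.366 (SD, n = 2) with it, a difference of -0.616 points. The groups did not overlap, and a two-sided exact permutation test gave p = 0.33, the smallest that 2 against 2 allows. By reads the shares were 1.80% and 2.12% against 1.71% and 1.99%, the groups overlapped and the sign turned (0.112 points). The sign also turned (0.812 points) when clusters needed the same minimum share of reads in each library.

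Clusters of the 4 radiolabelled libraries were merged into 57022 regions, 684 with a match. A region counted as a match region when at least 1 of its clusters held the match, and its reads were summed over all its clusters. A cluster in each library and at least 10 reads in total were needed for the test, which 1085 regions met, 31 with a match, so 653 match regions had no test. Of the 684 match regions, 551 were listed without the gel alone and 22 with the gel alone, in libraries with 929424 and 608223 against 183250 and 77572 reads in clusters. The same counts over all 57022 regions were not made, so these show nothing particular to match regions. In edgeR's quasi-likelihood test 12 regions (1.11%) passed an adjusted p of 0.05, 5 of them (0.461%) higher without the gel, and 1 of these was among the 31 match regions. The 12 became 21 without no gel library A and 2 without gel library A. Over the match regions the median log2 ratio of no gel over gel was 0.06, against -0.01 over all tested regions, and 17 were above 0 and 14 below. For 29 of 31 the log2 ratio was within 1, as for 90.1% of all. The groups did not overlap for 12 of the 31, and for 41.8% of all tested regions.

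The called region lay in XIST. It held 279 and 331 reads without the gel, against 41 and 10 with it, or 589 and 958 against 335 and 146 normalised CPM, the reads scaled to a common library size. The values without the gel were all above those with it, at a log2 ratio of 1.60 ± 0.35 (SE, edgeR adjusted p = 0.00279). All of these are values of the merged region. Its clusters that held the match had 279 and 261 reads without the gel and 35 in gel library A. None with the match was listed in gel library B, where the region entered the test through a cluster without the whole match. Without no gel library B the log2 ratio was 1.22 and without gel library B 1.17, and the region was then not called. DESeq2, which called no region (63 at an unadjusted p of 0.05, against 135 in edgeR), gave 1.62. This region is not the site shown above. Its match lies at chrX:73826627-73826633 (hg38, minus strand), after C and before T, and its radiolabelled clusters are 91 to 125 bases long, with the listed mode 49 to 83 bases downstream of the match. Clusters overlapping the fluorescent AGO2 cluster at that place held 565 and 547 reads for FUBP3 at 0.15 and 0.5 U/ul, and 185 and 368 for KHSRP. At 1.5 U/ul neither protein had such a cluster, and in the RNase T1 libraries they held 93 (FUBP3) and 24 (KHSRP). These reads are not scaled to library size. The part of these proteins' RNA in the difference was not tested.

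The other match regions with the highest ratios were PROSER1 at 1.28 ± 0.41 (SE, edgeR adjusted p = 0.099), MLK4 at 0.85, ETFDH (a mitochondrial electron carrier enzyme) at 0.64 and BACH1 at 0.52. PROSER1 had 376 and 420 normalised CPM without the gel, against 155 and 175 with it, without overlap. The lowest were ZNF28 at -0.85, CLP1 (an RNA kinase of 3' end processing) at -0.79, ZNF567 at -0.48, an unannotated site on chromosome 2 at -0.42 and C5orf51 (now RIMOC1) at -0.38, with none of them called. CBX5, the most read, had 1220 and 1120 normalised CPM without the gel, against 515 and 1440 with it, so the gel libraries lay on either side of the others.

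**Figure D5:**
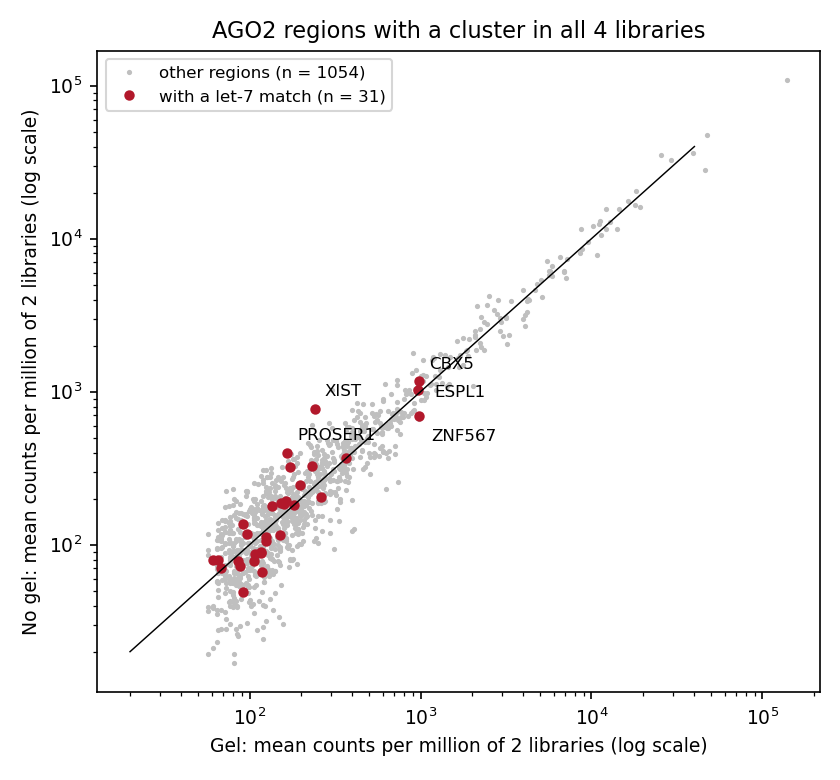
Mean normalised CPM (reads scaled to a common library size) over the 2 libraries without the gel (y axis) and the 2 with it (x axis), both on log scales, for the 1085 tested regions, with the 31 match regions in red and equality as a line. Most match regions lie among the others, and XIST, the called one, stands above the line.

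Match clusters of the fluorescent libraries were also set against the clusters of the other proteins. In hg38, 16 of 89 match clusters (18%) at 0.15 U/ul and 14 of 51 (27.5%) at 1.5 U/ul overlapped a cluster in any of the 11 libraries of CPSF1, FUBP3, KHSRP and U2AF1, on the same strand. For the other AGO2 clusters the shares were 45.4% and 39.2%. These others include short noncoding RNAs, no replicate exists and the difference was not tested. FUBP3 made up most of the overlaps (13 and 12 match clusters), and no match cluster overlapped one of CPSF1. At the EIF4G2 site FUBP3 held 252, 341 and 133 reads at 0.15, 0.5 and 1.5 U/ul, and AGO2 15 and 6. These are unscaled reads of whole overlapping clusters. The FUBP3 libraries held 1683771, 1975646 and 810326 reads in clusters, against 295889 and 335870 for AGO2. At CBX5 it held 43 and 62 at 0.15 and 0.5 U/ul, and at the IGF1R site 10 and 6 at 0.5 and 1.5 U/ul.

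The let-7 microRNAs themselves were present in every AGO2 library, as clusters of the let-7 family genes with 4603 and 6799 reads in the fluorescent libraries (4.72% and 4.55% of miRNA reads), 10751 and 6588 without the gel (3.32% and 2.68%) and 3004 and 1517 with it (3.14% and 3.28%). The 3 let-7a genes give the same mature sequence, so a split between them is uncertain. MIRLET7A3 led the family in the fluorescent libraries (1666 and 2841 reads) and MIRLET7G in the radiolabelled ones (4104, 2985, 1159 and 567).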

How the data were processed

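The 6 AGO2 cluster files were used, with the 11 files of CPSF1, FUBP3, KHSRP and U2AF1 beside them. Each deposited file lists clusters of 1 library with raw counts of reads, distinct read sequences and converted reads, and conversion as a fraction of reads. Per the submitters' processing notes the authors used bcl2fastq 2.20.0, cutadapt 1.15 and hg38, while the aligner, cluster caller and annotation are not given in the sources used here. Overlapping clusters of the fluorescent AGO2 libraries and the other proteins' libraries had the same bases at the same coordinates, but none of the 50 links between matches of the AGO2 protocols joined equal coordinates, so the radiolabelled files use another build than hg38. Reads in clusters, from 77572 to 929424 per AGO2 library, stand in for depth, and the smallest AGO2 cluster holds 5 reads.

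The seed was read from RefSeq (GRCh38.p14) let-7a-5p. Intervals are 95% Wilson intervals. Regions were tested on counts with edgeR's quasi-likelihood fit with TMM and Benjamini-Hochberg adjustment over all regions, with standard errors from the F statistic, and the same script was tested on simulated data. Of 577 gene names with a site, 517 were current RefSeq symbols and 32 a single synonym. Named genes are the target-list genes with a match, the 10 most read match clusters of each library, genes in all 6 libraries, and the called and the 5 highest and 5 lowest tested match regions. TAF5L, TMPPE, PGRMC1 and GNG5 (sites in 5 libraries), TARBP2 and ZCCHC11 (machinery list) and ACTB fall outside this rule and were named after their values were seen. The members and lists were chosen with earlier results of these data known. Software was Python 3.11.15 (numpy 2.4.6, pandas 2.3.3, scipy 1.17.1, matplotlib 3.10.9) and R 4.3.3 (edgeR 4.0.16, DESeq2 1.42.0).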

Additional observations from a re-analysis of the deposited data

How the results depend on the processing

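The median match share over the 6 libraries was 2.02% and moved to 1.55% in 3' UTR clusters, 3.14% with a match to bases 2 to 7 and 1.00% with A required after the match, all of them changes of what is counted. The share without the gel minus that with it turned from -0.616 points to 0.112 by reads and 0.812 with a matched minimum share of reads. It ranged from -0.875 to -0.357 when each replicate was left out, and the replicate block left it at -0.616. Region calls went from 12 to 0 with DESeq2 and to 0 with regions in at least 2 libraries and no minimum total, where 9088 were tested and 4535 had an unadjusted p under 0.05. With the replicate block 33 regions were called, 2 of them match regions (XIST and PROSER1), but A minus B correlated at only 0.035 between the groups, so the letters are not shown to pair libraries. Leaving out each replicate gave 2 to 21 regions, 2 of them without gel library A, and 0 to 1 match regions. Match regions called went from 1 to 0 with DESeq2 and with the looser filter. Of 95 alternative values for the 10 named regions 2 turned sign: the chromosome 2 site to 0.36 on distinct sequences and ETFDH to -0.24 without no gel library B, in a range up to 1.23 over the libraries left out. The causes were not tested. The minimum of 5 reads in a cluster limits what smaller libraries can list. A minimum of 3 distinct sequences, a minimum of 10 reads for the coding comparison and an A after the match in it were chosen after seeing the data.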
